A study of Rattus norvegicus with 97 samples.

Results

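The group III metabotropic glutamate receptors were followed through 97 arrays of rat nucleus accumbens shell, the part of the ventral striatum most closely tied to reward. All probe sets that the platform annotation gives to Grm4, Grm7 or Grm8 were taken, whatever their values. There were 5 of 31042 probe sets, for 3 of the 14218 genes that carry a symbol of their own. Grm4 (chromosome 20) was read by 1368690_a_at, Grm7 (chromosome 4) by 1369781_at, and Grm8 (chromosome 4) by 1369391_at, 1371242_at and 1371243_at, the last 2 of which were designed from the same GenBank entry. Each array came from 1 animal of 1 of 10 lines that form 5 pairs, each pair selected in opposite directions for alcohol intake. The preferring lines were P (the alcohol-preferring rat), HAD1 and HAD2 (replicate high alcohol drinking lines), AA (Alko, alcohol) and sP (Sardinian preferring). Their non-preferring partners were NP, LAD1, LAD2, ANA and sNP. Of the lines, 3 (LAD1, sP and sNP) gave 9 animals and 7 gave 10. Age, sex and alcohol exposure are not given in the sources used here, and animals of a line share their ancestry, so each pair compares 1 line with 1 line. The comparisons ask whether these receptors differ between the lines of a pair, and whether they do so alike in the 5 pairs.

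Glutamate acts on metabotropic receptors of 3 groups. The receptors of group III sit mainly on axon terminals, couple to Gi/o proteins, lower cyclic AMP and reduce transmitter release. Grm4 encodes mGlu4, which is known from terminals in the striatum and the globus pallidus. Grm7 encodes mGlu7, a receptor of the active zone with a low affinity for glutamate that binds the scaffold PICK1. In mice, variation at Grm7 has been linked to alcohol drinking. Grm8 encodes mGlu8, a presynaptic receptor with a high affinity for glutamate. The remaining member of the group, Grm6, is known for its role in retinal bipolar cells.

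RefSeq promoter sequences (GRCr8 assembly, 250 bases before to 50 after the annotated start) were matched for 2 of the 3 genes. They are shown because Grm7 and Grm8 lie on 1 chromosome and moved in opposite directions with the tissue markers described further on. Capitals mark the GC box GGGCGG on either strand. The Grm7 window is chr4:145286476-145286775 on the plus strand and the Grm8 window is chr4:57687457-57687756 on the minus strand.
Grm7: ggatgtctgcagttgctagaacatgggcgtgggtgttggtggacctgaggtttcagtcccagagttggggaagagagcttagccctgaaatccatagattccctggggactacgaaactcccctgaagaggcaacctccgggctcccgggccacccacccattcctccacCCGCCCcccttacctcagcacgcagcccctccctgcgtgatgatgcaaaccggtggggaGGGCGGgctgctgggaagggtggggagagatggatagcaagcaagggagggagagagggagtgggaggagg
Grm8: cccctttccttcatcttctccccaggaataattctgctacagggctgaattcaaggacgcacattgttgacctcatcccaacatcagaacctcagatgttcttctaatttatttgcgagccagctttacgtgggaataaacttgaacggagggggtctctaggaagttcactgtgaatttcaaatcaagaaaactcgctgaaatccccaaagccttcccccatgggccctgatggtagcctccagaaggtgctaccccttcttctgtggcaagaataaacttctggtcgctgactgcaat
The Grm7 window held 2 GC boxes, 9 CpG and 62% G and C. The Grm8 window held 0 GC boxes, 6 CpG and 47.3% G and C. Over 33469 promoters of the same length, 33.1% held a GC box and the median was 7 CpG. The CRE half-site TGACG (21.2% of all promoters) and the E-box CACGTG (6.42%) had 0 matches in both windows, searched on both strands and with no overlap with the GC box.

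Array medians lay between 7.82 and 8.02, and no array was a copy of another. On the genes that best part the lines of its own pair, with the group III probe sets left out, each array was given a score of 0 at the non-preferring and 1 at the preferring median. A total of 8 arrays, called departing arrays, lay over 0.3 away from where their own label would put them: HAD1 28 (0.02) and LAD1 37 (0.99), AA 19 (0.06) and ANA 20 (0.88), P 9 (0.42) and NP 9 (1.04), and sP 4 (0.40) and sNP 4 (0.47). HAD2/LAD2 had none. All arrays kept their labels, and the differences of the receptors are given with all arrays and, beside them, without these 8. Besides AA 19, whose profile lay closest to sP (mean r with its arrays 0.995, against 0.979 with AA), ANA 20 lay closest to sNP (0.996, against 0.986 with ANA). The profile of HAD1 28 lay closest to LAD1 (0.994, against 0.992 with HAD1), and that of LAD1 37 to HAD1 (0.993, against 0.990 with LAD1). In all 24 of 97 arrays correlated better with another line than with their own. Of 15 spiny neuron genes that mark the striatum 14 were measured, with medians over all arrays from 10.30 (Adcy5) to 14.13 (Penk). Single arrays went far lower, Drd1 reaching down to 8.93 from a median of 13.36, and RMA values carry no call of presence or absence. The index used below, called the marker index, is the mean level of 14 spiny neuron genes less that of 11 genes typical of the neighbouring ventral pallidum, septum or basal forebrain. It ran from 0.04 in P 5 to 5.09 in NP 1.

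Grm4 was highest in the Finnish lines and lowest in the first HAD/LAD pair. Its mean log2 value was 9.28 ± 0.44 (SD, n = 10) in AA and 9.19 ± 0.29 (n = 10) in ANA, against 8.02 ± 0.13 (n = 10) in HAD1 and 8.02 ± 0.11 (n = 9) in LAD1. The order was AA, ANA, sNP (8.98 ± 0.21), P (8.78 ± 0.58), NP (8.66 ± 0.52), sP (8.47 ± 0.46), LAD2 (8.24 ± 0.21), HAD2 (8.23 ± 0.15), LAD1 and HAD1. Of the 9 steps in that order 1 was wider than the larger SD of its 2 lines, the step from HAD2 to LAD1. P and NP animals spread widest, from 7.99 to 9.53 and from 7.99 to 9.23.

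Grm7 kept to a span of 0.999 between the highest and the lowest line. ANA (8.21 ± 0.19) and AA (8.18 ± 0.31) were again at the top, followed by NP (7.95 ± 0.35), P (7.93 ± 0.48), sNP (7.67 ± 0.24), LAD2 (7.66 ± 0.39), HAD2 (7.64 ± 0.18), HAD1 (7.44 ± 0.22), LAD1 (7.39 ± 0.22) and sP (7.21 ± 0.39). None of the 9 steps was wider than the larger SD.

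Grm8 gave different orders by probe set. The probe set 1369391_at spanned 2.31, from ANA (8.11 ± 0.19) through P (7.91 ± 0.64), NP (7.84 ± 0.48), sNP (7.75 ± 0.20), AA (7.41 ± 0.56) and sP (7.38 ± 0.21) to HAD2 (6.48 ± 0.48), LAD2 (6.45 ± 0.42), HAD1 (6.10 ± 0.25) and LAD1 (5.80 ± 0.33). Its step from sP down to HAD2 exceeded the spread. The probe set 1371243_at also put ANA (7.36 ± 0.10) first and LAD1 (6.42 ± 0.24) last. The probe set 1371242_at ran the other way, with HAD1 (10.15 ± 0.07) and LAD1 (10.09 ± 0.05) first and AA (8.97 ± 0.16) and ANA (8.91 ± 0.16) last. These levels are values of single probe sets and are not set against each other across probe sets. The Affymetrix Gapdh 3′ minus 5′ value, which rises as RNA or cRNA shortens, was 4.19 to 5.38 in HAD1 and LAD1 and 2.3 to 3.6 in HAD2 and LAD2, against −0.06 to 0.80 in all other lines. Levels that set the HAD/LAD lines apart from the other lines and this difference in RNA quality cannot be told apart. Within each pair the Gapdh value did not pass an exact permutation test (adjusted p 0.445 to 0.914 over 10 tests).

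**Figure D1:**
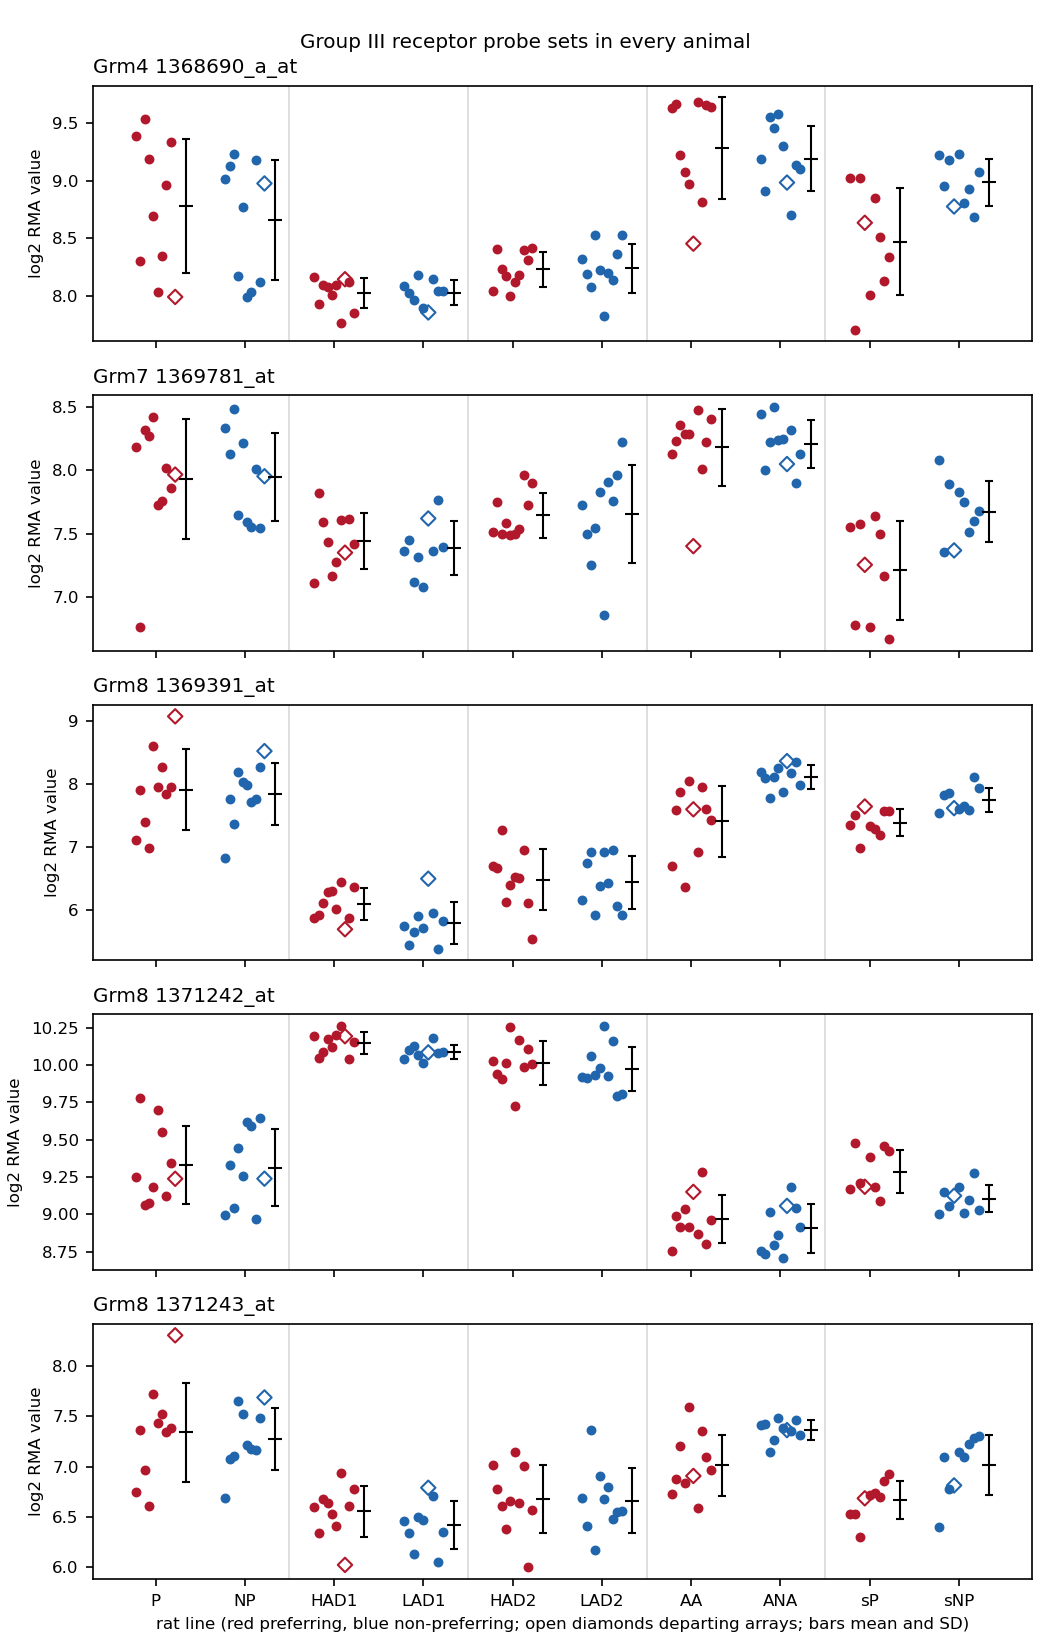
Log2 RMA value (vertical axes) of each group III probe set in every animal, by line (horizontal axis). Points are animals, open diamonds are departing arrays, and bars give the mean and SD. Within most pairs the clouds overlap fully, and 1369391_at in AA (6.37 to 8.04) reaches well below ANA (7.77 to 8.36).

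Grm8 passed the threshold as lower in AA than in ANA at 1 of its 3 probe sets. At 1369391_at the AA animals had a lowest value of 6.37, a median of 7.59 and a highest of 8.04, and the ANA animals 7.77, 8.13 and 8.36. The lines overlapped through AA 5, AA 13 and AA 17, which lay within the ANA range, while AA 15, AA 1 and AA 3 lay lowest. The difference was −0.70 ± 0.17 (SE; 95% interval −1.06 to −0.34), which is 1.63-fold, with an adjusted p of 0.029 in limma and a two-sided exact permutation p of 0.000314. It was 1 of 5 group III probe sets called, that is with a limma adjusted p under 0.05, where 2.35% of all probe sets were called in this pair. The second probe set, 1371243_at, had 6.59, 6.94 and 7.59 in AA and 7.15, 7.38 and 7.49 in ANA. Its difference of −0.35 ± 0.10 missed the threshold (adjusted p = 0.0642 in limma, exact permutation p = 0.00354).

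The remaining probe sets of this pair had intervals that included 0. The difference was 0.06 at Grm8 1371242_at (95% interval −0.09 to 0.21), 0.09 at Grm4 (−0.23 to 0.41) and −0.03 at Grm7 (−0.25 to 0.20). The marker index was 3.92 in AA and 3.82 in ANA (exact permutation p = 0.784), and none of the 14 spiny neuron or 11 pallidal, septal and basal forebrain markers was called. Of the other marker lists, 1 of 8 astrocyte and 1 of 11 microglia markers were called higher in AA, and their part in the Grm8 difference was not tested. With the index as a covariate, 1369391_at was at −0.68 (limma adjusted p = 0.0168) and 1371243_at at −0.34 (adjusted p = 0.0396), so that 2 of 5 were called against 3.31% of all probe sets. Without AA 19 and ANA 20, 1369391_at was at −0.70 ± 0.19 (adjusted p = 0.0351), where 4.44% of all probe sets were called. Called in that fit were also 2 of 8 astrocyte markers (Gfap 0.98, S100b −0.17), 3 of 11 microglia markers (Aif1 0.36, Ctss −0.33, Itgam −0.33), Mobp (−0.41) and Abcb1a (0.35). The call of 1369391_at was lost when AA 1, AA 3, ANA 6, ANA 10 or ANA 18 was left out singly (limma adjusted p 0.0532 to 0.0581, difference −0.70 to −0.63), and 1371243_at gained one without AA 5 (adjusted p = 0.0337) or AA 17 (adjusted p = 0.00556).

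In HAD1 against LAD1 the same Grm8 probe set pointed the other way, and its call turned on the departing arrays. HAD1 animals had 5.70, 6.07 and 6.45 as the lowest, median and highest value of 1369391_at, and LAD1 animals 5.40, 5.75 and 6.50. By its mean over this pair the probe set lay among the dimmest 25% of all probe sets. The deposited values do not show whether such levels differ from background. The Gapdh 3′ minus 5′ value was also highest in these lines (4.19 to 5.38). The lowest HAD1 animal was HAD1 28 and the highest LAD1 animal was LAD1 37, the departing arrays of this pair. With all arrays the difference was 0.30 ± 0.12 (95% interval 0.04 to 0.55; limma adjusted p = 0.374; exact permutation p = 0.0404), and 0 of 5 group III probe sets were called against 1.2% of all probe sets. At an unadjusted p under 0.05 limma counted 1 of 5.

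Without HAD1 28 and LAD1 37, 9 animals against 8, the difference was 0.43 ± 0.10 (95% interval 0.23 to 0.63; limma adjusted p = 0.0126; exact permutation p = 0.000987), and 1 of 5 was called against 3.98% of all. HAD1 then ran from 5.88 to 6.45 and LAD1 from 5.40 to 5.97. Leaving out LAD1 37 alone was enough for the call (0.38, limma adjusted p = 0.0496). The score that marks departing arrays is itself built on differences of this pair, so the larger value is not independent of it. In the same fit 3 of 9 interneuron markers were called lower in HAD1 (Sst at −0.98, Chat at −0.34 and Slc5a7 at −0.24), as were 1 of 11 microglia markers (Cx3cr1, −0.25) and 1 of 8 endothelial markers (Abcb1a, −0.49). The endothelial gene Tek (0.57) and the oligodendrocyte gene Mobp (0.41) were called higher, and the part of these markers in the Grm8 difference was not tested. The marker index was 4.50 in HAD1 and 4.67 in LAD1 (exact permutation p = 0.155), and with it as a covariate the difference was 0.19 with all arrays (limma adjusted p = 0.772) and 0.32 without the departing arrays (adjusted p = 0.0691). At 1371243_at the difference was 0.13 ± 0.11, and 0.24 ± 0.09 without the departing arrays (limma adjusted p = 0.193). Grm4 (0.00; 95% interval −0.12 to 0.12), Grm7 (0.05; −0.14 to 0.25) and Grm8 1371242_at (0.06; −0.02 to 0.14) did not pass.

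All 5 group III probe sets differed between sP and sNP, in the pair with the most differences of any. The 5 of 5 stood against 12.9% of all probe sets, of which 5.83% were lower and 7.08% higher. Grm4, Grm7 and 2 Grm8 probe sets were lower in sP, and Grm8 1371242_at was higher. A lower value in a piece of tissue can come from fewer cells of a type or from less RNA per cell, and arrays of bulk tissue cannot tell these apart.

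Grm4 had a lowest value of 7.71, a median of 8.51 and a highest of 9.02 in sP, and 8.68, 8.95 and 9.23 in sNP. The difference was −0.52 ± 0.16 (95% interval −0.84 to −0.19), or 1.43-fold (limma adjusted p = 0.0389; exact permutation p = 0.0072). The sP animals that reached into the sNP range were sP 1, sP 3 and sP 6, and these had the highest marker indices of their line (3.68, 3.63 and 3.15). Grm7 had 6.66, 7.25 and 7.64 in sP and 7.36, 7.68 and 8.08 in sNP, a difference of −0.47 ± 0.14 (limma adjusted p = 0.0391; exact permutation p = 0.00765). Here sP 1, sP 3, sP 6 and sP 7 lay within the sNP range, and sP 9, sP 5 and sP 2, whose marker indices were the lowest (1.10, 1.08 and 1.11), lay at the bottom.

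At Grm8 1369391_at the sP animals had 6.99, 7.35 and 7.64 and the sNP animals 7.53, 7.66 and 8.11. The difference was −0.36 ± 0.09 (limma adjusted p = 0.023; exact permutation p = 0.00123), and sP 4, sP 8 and sP 9 lay within the sNP range. At 1371243_at the values were 6.30, 6.70 and 6.92 in sP and 6.40, 7.10 and 7.31 in sNP, with a difference of −0.35 ± 0.11 (limma adjusted p = 0.0422). The sNP range here reached down through sNP 1 alone, the next sNP animal being sNP 3 at 6.78. At 1371242_at the sP animals had 9.09, 9.21 and 9.48 and the sNP animals 9.0, 9.10 and 9.28, a difference of 0.18 ± 0.06 (limma adjusted p = 0.0454). The sP animals above all sNP animals at this probe set were sP 2, sP 5, sP 8 and sP 9.

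The tissue markers differed between these lines as well. The marker index was 2.36 ± 1.11 (SD, n = 9) in sP and 3.77 ± 0.62 (n = 9) in sNP (exact permutation p = 0.00494, adjusted p = 0.0494 over 10 tests). Of the 14 spiny neuron markers, 12 were called lower in sP (mean over the list 10.21 to 12.31 in sP animals and 11.62 to 12.56 in sNP animals), and of the 11 pallidal, septal and basal forebrain markers 5 were called higher (8.63 to 9.26 and 8.0 to 8.91). Of 14 genes listed as pallidal, septal or basal forebrain markers 11 were measured, and the lowest medians over all arrays were those of Zic1 (5.38) and Syt2 (5.83). The deposited values do not show whether such levels differ from background. Of the other cell types, 3 of 8 astrocyte, 2 of 8 pericyte, smooth muscle and meningeal and 1 of 9 oligodendrocyte markers were called higher in sP. Of 8 endothelial markers 3 were lower, 1 of 9 interneuron markers was higher and 1 lower, and 0 of 11 microglia and 0 of 3 blood cell markers were called. The higher interneuron marker, Pvalb (1.07), was also among the 5 called pallidal, septal and basal forebrain markers.

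With the index as a covariate the receptors parted. Grm4 was then at 0.00 (95% interval −0.17 to 0.18), Grm7 at −0.02 (−0.22 to 0.17) and Grm8 1371242_at at 0.03 (−0.08 to 0.14), each with a limma adjusted p of 1.0. Grm8 1369391_at stayed lower at −0.50 ± 0.11 (95% interval −0.72 to −0.27; limma adjusted p = 0.0273), and 1371243_at was at −0.53 ± 0.13 (adjusted p = 0.0604). That makes 1 of 5 called, against 0.912% of all probe sets. The indices of sP 2, sP 5, sP 8 and sP 9 lay below the lowest sNP index (2.72), so the fit had no sNP animal there. Without sP 4 and sNP 4 and with the covariate, a fit added after the data were seen, 1369391_at was at −0.61 (limma adjusted p = 0.00331) and 1371243_at at −0.61 (adjusted p = 0.035), 2 of 5 against 1.3% of all. Without these 2 arrays and with no covariate all 5 were again called, against 15% of all probe sets, with Grm4 at −0.56 and Grm7 at −0.51.

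The calls of this pair lay near the threshold. With the Gapdh 3′ minus 5′ value as a covariate 2 of 5 were called, against 2.78% of all probe sets: Grm8 1369391_at (−0.39, limma adjusted p = 0.0293) and 1371243_at (−0.44, adjusted p = 0.0192). Grm4 (−0.46, adjusted p = 0.103), Grm7 (−0.40, adjusted p = 0.105) and 1371242_at (0.17, adjusted p = 0.112) then missed the threshold. Leaving out singly any of sP 2, sP 5, sP 8, sP 9, sNP 1, sNP 3, sNP 5, sNP 6, sNP 7 or sNP 9 left 0 to 2 of 5 called, and leaving out any other array left 4 or 5. The limma adjusted p of lost calls reached 0.0814 for Grm4, 0.0826 for Grm7, 0.0959 for 1371242_at and 0.0846 for 1371243_at. Grm8 1369391_at lost its call without sNP 3 alone (−0.35, adjusted p = 0.0511), and in the fit over all 97 arrays, whose spread comes from all 10 lines, it was not called (adjusted p = 0.222) while Grm4 and Grm7 were. The differences moved less than the calls, that of Grm4 from −0.58 to −0.42 over single arrays left out.

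**Figure D2:**
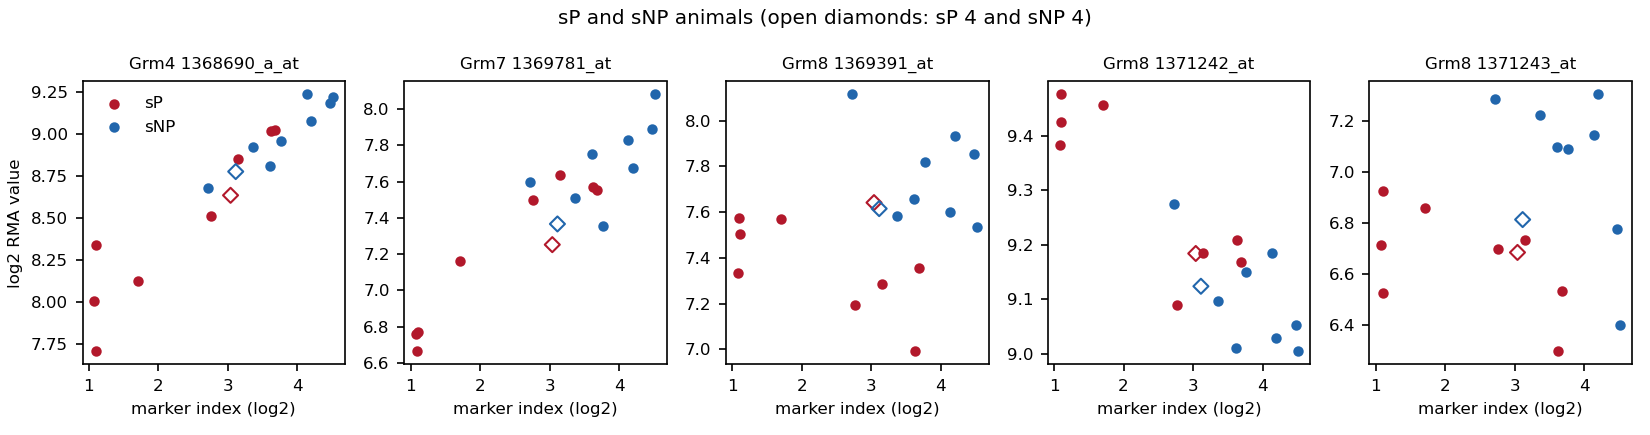
Log2 RMA value (vertical axes) of the 5 probe sets against the marker index (horizontal axes, log2) in each sP and sNP animal. Grm4 and Grm7 climb along 1 band shared by both lines. At Grm8 1369391_at the sP animals (median 7.35) mostly lie below the sNP animals (median 7.66). The lowest sP indices (down to 1.08) lie below the lowest sNP index (2.72), so not every sP animal has an sNP animal of like index.

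P/NP and HAD2/LAD2 gave no call. In P against NP, 0 of 5 group III probe sets were called (limma, 1.05% of all probe sets; 0 of 5 at an unadjusted p under 0.05). The differences were 0.12 for Grm4 (95% interval −0.37 to 0.60), −0.02 for Grm7 (−0.38 to 0.35), and 0.07 (−0.43 to 0.56), 0.02 (−0.21 to 0.25) and 0.06 (−0.30 to 0.42) for Grm8. These intervals are the widest of the 5 pairs, and that of 1369391_at still holds a difference of the size found in sP/sNP (−0.36). P and NP animals also spread widest in the marker index, from 0.04 to 5.06 and from 1.92 to 5.09.

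The P/NP value of Grm4 was larger in the fits with the marker index or without the departing arrays. With the marker index as a covariate it was 0.21 (95% interval 0.03 to 0.39; limma adjusted p = 0.261), without P 9 and NP 9 it was 0.24 (−0.26 to 0.74; adjusted p = 1.0), and with both it was 0.27 (0.10 to 0.44; adjusted p = 0.0639). In each of these fits 0 of 5 group III probe sets were called, against 3.03% of all probe sets with the covariate, 661 of 31042 without the 2 arrays and 5.15% with both. Both intervals with the covariate leave out 0, and neither adjusted p passed. The other 4 probe sets lay between −0.02 and 0.04 in all 3 fits. Without P 9 and NP 9, 4 of 11 microglia markers were called lower in P (Ctss −0.37, Laptm5 −0.38, Aif1 −0.45 and Csf1r −0.38), and their part was not tested.

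In HAD2 against LAD2, 0 of 5 were called against 4.6% of all probe sets (limma; 0 of 5 at an unadjusted p under 0.05). Grm4 differed by −0.01 (95% interval −0.18 to 0.16), Grm7 by −0.01 (−0.27 to 0.25) and Grm8 by 0.04 (−0.35 to 0.42), 0.04 (−0.10 to 0.17) and 0.02 (−0.27 to 0.30). Of the cell markers, limma called 5 of 9 oligodendrocyte, 3 of 8 endothelial and 2 of 11 microglia markers lower in HAD2. Also lower were 1 of 9 interneuron and 1 of 3 blood cell markers. Called higher were 3 of 8 pericyte, smooth muscle and meningeal, 1 of 8 endothelial and 1 of 11 microglia markers. No spiny neuron, pallidal, septal, basal forebrain or astrocyte marker was called. The part of the called markers in the receptor values was not tested. A difference as large as the −0.70 of AA/ANA at 1369391_at lies outside the interval of this pair, as it does in P/NP and HAD1/LAD1. The line means of this probe set were, however, 5.80 to 6.48 in the HAD/LAD lines, against 8.11 in ANA. The deposited values do not show whether such low levels differ from background. The HAD/LAD intervals thus cannot decide whether the RNA differed by as much.

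**Figure D3:**
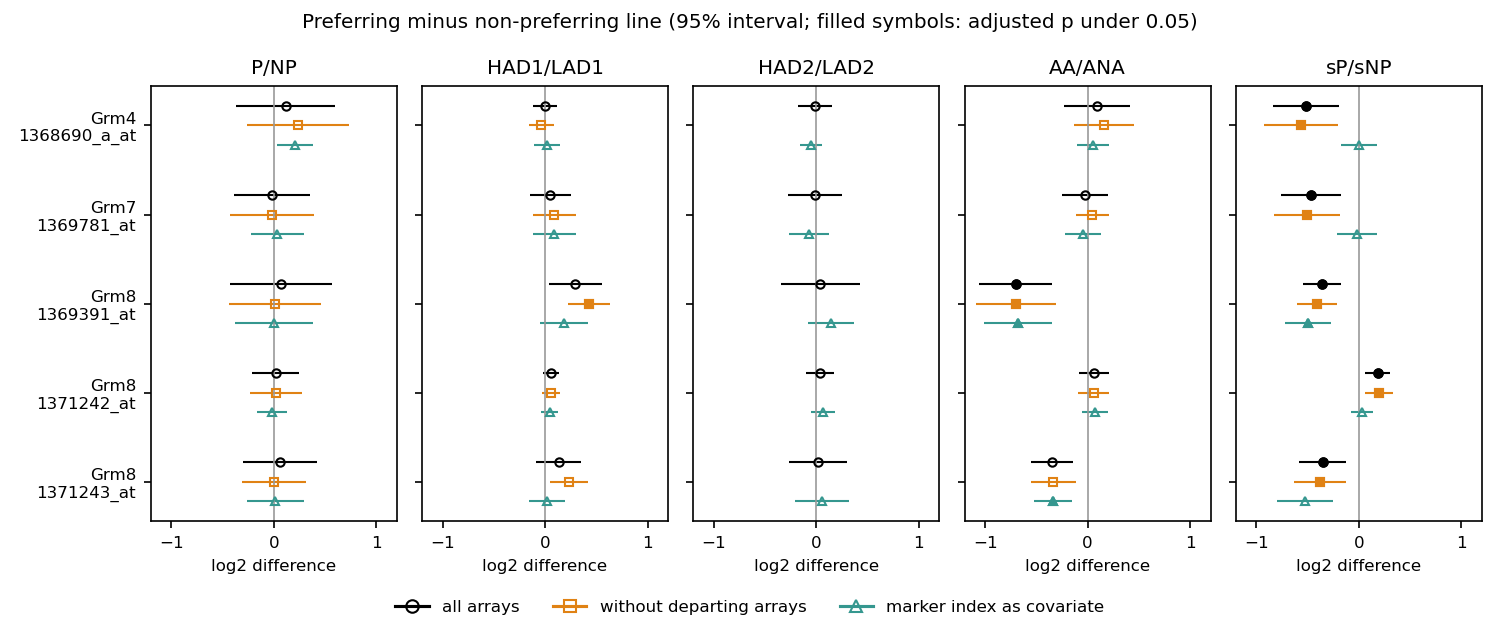
Preferring minus non-preferring difference in log2 value (horizontal axes, with 95% intervals) for each probe set and pair, with all arrays (circles), without departing arrays (squares) and with the marker index as covariate (triangles). Filled symbols had a limma adjusted p under 0.05. In sP/sNP the Grm4 and Grm7 differences of −0.52 and −0.47 go to 0.00 and −0.02 with the covariate, and that of Grm8 1369391_at does not.

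Averaged over the 5 pairs, no group III probe set passed the test. In the fit with 1 mean per line 0 of 5 were called (limma, 3.37% of all probe sets), and 1 of 5 had an unadjusted p under 0.05, Grm8 1371242_at (0.07, higher in 5 of 5 pairs, adjusted p = 0.292). The average was −0.06 for Grm4 (95% interval −0.20 to 0.08), −0.09 for Grm7 (−0.22 to 0.03), −0.13 for Grm8 1369391_at (−0.30 to 0.03) and −0.10 for 1371243_at (−0.22 to 0.02). Without the departing arrays these averages were −0.04, −0.08, −0.13 and −0.09, and again none was called. With the marker index as a covariate 1369391_at was at −0.21 (−0.35 to −0.07; limma adjusted p = 0.0595) and 1371243_at at −0.15 (−0.26 to −0.05; adjusted p = 0.0885). Both intervals leave out 0 and both adjusted p missed the threshold, 0 of 5 being called against 4.48% of all probe sets. With the line pair as the unit limma called 0 of 31042 probe sets, 1214 of which had an unadjusted p under 0.05. None of the group III probe sets was among these.

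At 1 of the 3 Grm8 probe sets the difference itself varied between pairs. An F test that the 5 differences are equal called 1 of 5 probe sets, 1369391_at (F = 4.75, limma adjusted p = 0.0185), where 11.7% of all probe sets were called. Its differences were 0.07 in P/NP, 0.30 in HAD1/LAD1, 0.04 in HAD2/LAD2, −0.70 in AA/ANA and −0.36 in sP/sNP. In HAD1/LAD1, the highest of these, this probe set lay among the dimmest 25% of all probe sets. Without the departing arrays its adjusted p was 0.00409 and 1371243_at was called too (0.0405; 17.5% of all). With the marker index as a covariate they had 0.000202 and 0.00357 (11.9% of all). Grm4 (adjusted p = 0.2), Grm7 (0.281), 1371243_at (0.131) and 1371242_at (0.818) did not pass with all arrays.

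Among animals of the same line, Grm4 and Grm7 rose and Grm8 fell with the marker index. After each line's mean was subtracted, Grm4 had a Pearson r of 0.899 and a Spearman rho of 0.871 with the index over 97 arrays, and Grm7 had 0.677 and 0.693. Grm8 had −0.552 and −0.575 at 1369391_at, −0.705 and −0.628 at 1371242_at, and −0.507 and −0.516 at 1371243_at. The permutation p of these r, with values permuted within lines, ran from 1e-05, the smallest that 100000 permutations can give, to 3e-05, and from 2.5e-05 to 6.67e-05 after adjustment over 20 relations. Without the 2 arrays farthest from the median of the index r was 0.895, 0.732, −0.556, −0.724 and −0.492, in the same order. The share of all probe sets with an r of such size was not counted. These r therefore do not show a trait particular to the receptors.

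With all arrays the sign was the same in 10 of 10 lines for each of the 5 probe sets, with sizes that varied. Without the departing arrays it was the same in 10 of 10 lines for 4 probe sets and in 9 of 10 for Grm4, whose r in LAD1 was −0.04 over 8 animals. The line-centred r over the 89 arrays left was 0.900 for Grm4, 0.693 for Grm7 and −0.548, −0.750 and −0.507 for the Grm8 probe sets. With all arrays Grm4 ran from 0.07 in LAD1 to 0.96 in P, and Grm8 1369391_at from −0.28 in sNP to −0.95 in LAD2. Grm8 1371242_at ran from −0.01 in LAD1 and −0.04 in HAD2 to −0.92 in LAD2. HAD1, LAD1 and HAD2, whose index had an SD of 0.26, 0.23 and 0.38 among animals, gave the weakest r of Grm4, at 0.32, 0.07 and 0.64. The Gapdh 3′ minus 5′ value had an r of −0.168 with Grm4 (permutation p = 0.00397, adjusted p = 0.00611) and −0.275 with Grm7 (permutation p = 0.00104, adjusted p = 0.00173), and 0.084, 0.083 and −0.022 with Grm8, which did not pass. The Spearman rho of −0.126 for Grm4 and −0.166 for Grm7 did not pass either (adjusted permutation p = 0.166 and 0.126). In single lines the Gapdh value could be tied more closely than the index, with −0.84 against 0.64 for Grm4 in HAD2. For Grm7 in AA the values were −0.87 against 0.76 with all arrays, and −0.04 against 0.57 without the departing array of AA. The closer tie in AA was thus absent without that array. The sign of the Gapdh r changed between lines.

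**Figure D4:**
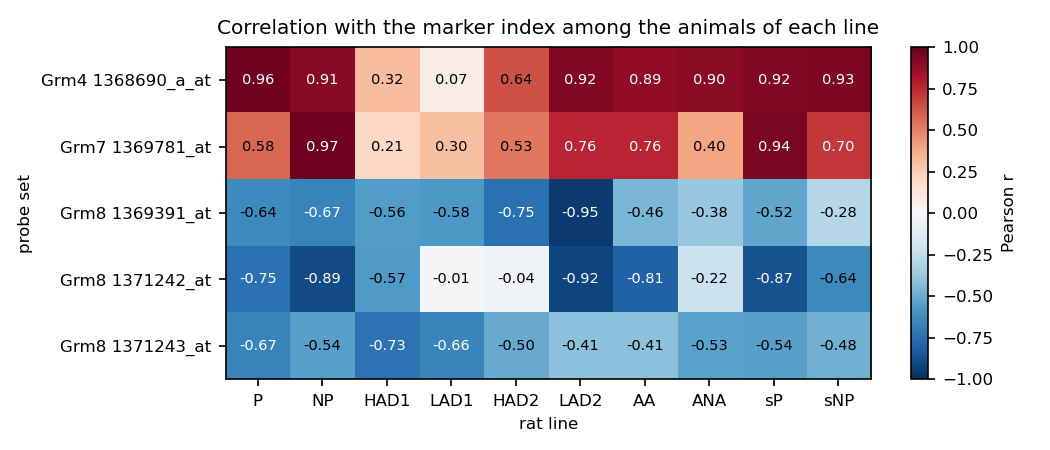
Pearson r between each probe set (rows) and the marker index among the animals of each line (columns, 9 or 10 animals), with the colour scale running from −1 to 1. With all arrays Grm4 and Grm7 are positive in all 10 lines and the 3 Grm8 probe sets negative in all 10, and without the departing arrays Grm4 in LAD1 is at −0.04.

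Within lines Grm4 ran against Grm8, and Grm7 did so less closely. Grm4 and Grm7 had an r of 0.617 (rho 0.602), positive in 9 of 10 lines. Grm4 had −0.458, −0.667 and −0.430 with the Grm8 probe sets 1369391_at, 1371242_at and 1371243_at, negative in 10, 9 and 10 of 10 lines. Without the departing arrays each was negative in 9 of 10 lines, and in LAD1 they were at 0.46, 0.38 and 0.44. Grm7 had −0.293 (adjusted permutation p = 0.0184), −0.645 and −0.205 (adjusted permutation p = 0.115, which did not pass) with the same probe sets. Grm8 1369391_at and 1371243_at had 0.738 (rho 0.685), positive in 10 of 10 lines, whereas 1371242_at had 0.308 with the first and 0.174 with the second (permutation p = 0.161). The Grm8 probe set that departs from the others between lines thus also tracked them least within lines. All these values come from the same arrays, and probe sets of 1 array share its RNA sample and its scaling.

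The genes most like each probe set within lines were found over the same 97 arrays, given here as a description. Grm4 was closest to Pde1b (0.913), a calmodulin-dependent phosphodiesterase, the plexin Plxnd1 (0.913) and the potassium channel subunit Kcnip2 (0.909). Grm7 was closest to the helicase gene Dhx32 (0.798), the atypical protein kinase C Prkcz (0.791) and the kinase Jak2 (0.783). Grm8 1369391_at was closest to the calmodulin kinase subunit Camk2d (0.758), the nuclear receptor Nr2f1 (0.726) and the calcium sensor Vsnl1 (0.719), and Vsnl1 (0.649) also stood near 1371243_at, behind Stmn1 (0.678). The nearest genes of 1371242_at were Pycr3 (0.778), the growth factor neurturin (Nrtn, 0.762) and dysferlin (Dysf, 0.758).

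Other metabotropic receptors were called in 3 of the 5 pairs. Of 4 measured, limma called 2 lower in HAD1 than LAD1: Grm5 (−1.12), a receptor that couples to Gq, and Grm2 (−0.45), a presynaptic autoreceptor. Grm5 was also lower in HAD2 than LAD2 (−2.57), the 1 call of 4 there, and Grm2 (−0.59) and Grm3 (−0.29) were lower in sP than sNP. None of the 4 was called in P/NP or AA/ANA. The share of all probe sets called was 1.2% in HAD1/LAD1, 4.6% in HAD2/LAD2 and 12.9% in sP/sNP. The part of the tissue difference in the sP/sNP calls of Grm2 and Grm3 was not tested. The median of the 4 was −0.36 in sP/sNP and −0.24 in HAD1/LAD1, against a median over all probe sets close to 0 in both.

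Genes that act with the group III receptors gave 4 calls with all arrays outside sP/sNP, where the share over all probe sets was 1.05% to 4.6%, and more within it, where that share was 12.9%. Of 20 binding partners and scaffolds limma called none in the other 4 pairs, and in sP/sNP it called the scaffold Grip2 (0.46) and the arrestin Arrb2 (0.29) higher and the scaffold Homer1 (−0.64) lower. Of 32 genes of Gi/o coupling and its effectors, Gnb4 (0.31) and the adenylyl cyclase Adcy9 (0.59) were higher in HAD2, and the G protein subunit Gnb1 (0.56) was higher in AA. In sP/sNP 5 were higher and 7 lower, among them Grk6 (0.26), Gng3 (0.30) and Adcy2 (0.54) higher and Gnb5 (−0.28) lower. This list shares Adcy5 and Rgs9 with the spiny neuron markers, and the lists that follow share Syt2 and Slc17a6 with the pallidal ones. Of 21 genes of the release machinery, the vesicle protein Syn2 (0.29) was higher in AA, and in sP/sNP complexin Cplx1 (0.39), Syt2 (0.23) and Sv2a (0.45) were higher and the calcium channel subunit Cacnb4 (−0.52) lower. Of 12 genes of glutamate supply and clearance, the glutamine transporters Slc38a2 (0.34) and Slc38a1 (0.39) were higher in sP. Without the departing arrays Adcy9 was called higher in P than NP (0.98), and in AA/ANA the vesicle protein Sv2b (0.22) and the glutamate transporter Slc1a1 (0.19) were called higher and Slc1a2 (−0.28), the main astrocyte glutamate transporter, lower. The 3 of 20 partners called in sP/sNP lie near the share of all probe sets. The medians of these 4 lists in sP/sNP were 0.02, −0.04, 0.02 and 0.08. The part of the tissue difference in these sP/sNP calls was not tested.

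Of the 30 measured genes next to the receptors on the chromosome, 5 on each side, 7 (23.3%) were called in sP/sNP, where 12.9% of all probe sets were, and 0 or 1 in each other pair. In AA/ANA none of the 10 around Grm8 was called, nor any around Grm4 or Grm7. In sP/sNP limma called Hmga1 (0.29) and Pacsin1 (0.30) near Grm4, Bhlhe40 (0.29) and Itpr1 (−0.94) near Grm7, and Gpr37 (0.28), Pot1 (−0.26) and Arf5 (−0.23) near Grm8. Outside that pair the calls were Lmcd1 near Grm7, higher in HAD2 (0.28), and Snd1 near Grm8, lower in HAD1 (−0.22) once the departing arrays were left out.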

How the data were processed

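Per the labels' protocols, RNA extracted with Trizol and RNeasy columns (25 ng, 2 amplification cycles) was hybridised to Affymetrix 3′ arrays. The authors summarised the probes by RMA, per the submitters' processing notes (version not given in the sources used here). Values are on the log2 scale as deposited and received no further scaling, and 57 of 31099 probe sets (AFFX controls) were left out. Names came from the platform annotation and neighbours from a current RefSeq gene table. The number of arrays limits the precision of each difference.

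Each pair was fitted alone with limma 3.58.1 in R 4.3.3 (lmFit, eBayes, two-sided), with Benjamini-Hochberg adjustment over 31042 probe sets. A fit with 1 mean per line gave the average and the F test. The limma script was tested on simulated data. Single values had exact permutation tests (25 of probe set and pair, p unadjusted) in Python 3.11.15 with scipy 1.17.1. Lists used the brightest probe set per gene. Lines had 9 or 10 animals, numbered per the labels. Animal numbers shared in P/NP and sP/sNP are not given as pairs in the labels, and no block was used in the main fits.

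The receptors, gene lists, marker lists and the limit for departing arrays were chosen with earlier results of these data known. Named genes were the receptors, 5 measured neighbours on each side, the 3 most alike genes per probe set, and at most 4 called members per list and pair. Alternatives were other samples in the fit, variance model, normalization, a filter on dim probe sets, the Gapdh value or the marker index as covariate, the animal number as a block, and single arrays left out. Probe sequences were not used here.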

Additional observations from a re-analysis of the deposited data

Results flagged for a closer look

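Grm7 was far below the rest of its line in 2 animals. P 10 had 6.76, where the next lowest P animal had 7.73, and AA 19 had 7.40, where the next lowest AA animal had 8.01. Each gap was large against the range of its line by Dixon's criterion. Of 50 combinations of line and probe set examined 2 were singled out, and chance singles out about 1 in 20. P 10 had a marker index of 1.58, the third lowest of its line. AA 19 had the lowest index in AA (2.33) and is a departing array that correlated more closely with sP (r = 0.995) than with AA (0.979), as ANA 20 did with sNP (0.996) against ANA (0.986). The part of these values in the low Grm7 was not tested.

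The preferring minus non-preferring difference of Grm8 1369391_at varied between the 5 pairs (limma F test, adjusted p = 0.0185), from 0.30 in HAD1/LAD1 to −0.70 in AA/ANA. What sets the pairs apart was not tested.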

How the results depend on the processing

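The alternatives were run on the 5 probe sets in each pair to which they apply: HAD2/LAD2 has no departing array, and the animal number as a block was run in P/NP and sP/sNP. For single probe sets outside the single-array runs 265 values kept direction and side of the threshold, 13 lost a call, 4 gained one and 12 changed sign. Of the counts of called probe sets 51 stayed equal or within 1.5 times, and 8 moved. Those that stayed include counts of 0 that remained 0. The main count was 0 in P/NP, HAD1/LAD1, HAD2/LAD2, the average and the fit with the line pair as the unit.

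The count became 1 of 5 in HAD1/LAD1 without the departing arrays and 2 in AA/ANA with the marker index as covariate. In sP/sNP it became 2 in the fit over 97 arrays, 2 with the Gapdh covariate, 1 with the marker index, and 2 with the index and without the departing arrays. For the F test it became 2 without the departing arrays and 2 with the index. With single arrays left out the count ran from 0 to 1 in HAD1/LAD1, 0 to 2 in AA/ANA and 0 to 5 in sP/sNP. The cause was not tested.

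The sign changes were of small differences, or of Grm4 in sP/sNP. With the marker index they were P/NP Grm7 (0.0361) and 1371242_at (−0.0189), HAD1/LAD1 Grm4 (0.0168), sP/sNP Grm4 (0.00226) and average Grm4 (0.049). With the index and without departing arrays they were P/NP 1369391_at (−0.0022) and 1371243_at (−0.0113), AA/ANA Grm7 (0.0122) and sP/sNP Grm4 (0.0283). With the Gapdh covariate they were HAD2/LAD2 Grm4 (0.0164) and Grm7 (0.0229), and without the departing arrays AA/ANA Grm7 (0.0443). With single arrays left out, P/NP Grm7 ran from −0.0716 to 0.113, 1369391_at from −0.0605 to 0.17, 1371242_at from −0.0319 to 0.055 and 1371243_at from −0.0456 to 0.144. HAD1/LAD1 Grm4 ran from −0.0233 to 0.0268, and AA/ANA Grm7 from −0.0596 to 0.0617. HAD2/LAD2 Grm4 ran from −0.0563 to 0.0225, Grm7 from −0.100 to 0.0519, 1369391_at from −0.0496 to 0.142 and 1371243_at from −0.0366 to 0.0957.

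Same-numbered animals of P/NP had correlations from −0.59 to 0.77 (median 0.335, 4 of 10 closest to their own number). Those of sP/sNP had −0.22 to 0.56 (median 0.108, 2 of 9). The labels do not say that shared numbers pair animals, and whether some of them do was not settled. With the number as a block 0 of 5 were called in P/NP and 5 of 5 in sP/sNP. The filter on dim probe sets removed 1369391_at in HAD1/LAD1, where it gives no value.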
